A study of Mus musculus with 8 samples.

Results

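The light-response cascade of cones was followed through 7 genes that encode cone transducin (*Gnat2*, *Gnb3*, *Gngt2*), the cone phosphodiesterase (*Pde6c*, *Pde6h*) and the cone cyclic nucleotide-gated channel (*Cnga3*, *Cngb3*). They were taken from a table of 28853 probe sets that stand for 19938 genes with a single listed symbol, and each of the 7 had 1 probe set. RNA of C57BL/6J mouse retina, a pigmented strain vulnerable to hyperoxia, had been hybridised to 8 Mouse Gene 1.0 ST arrays, 2 in each of 4 groups. The groups were inferior retina after hyperoxia, inferior retina of controls, superior retina after hyperoxia and superior retina of controls. Hyperoxia was 75% oxygen without interruption for 14 days, begun at a postnatal age of 83 to 90 days. Controls stayed in normoxia and were killed at the same age. All mice were raised and kept in dim light of 5 lux for 12 h alternating with 12 h of darkness. Each sample pooled retinas of 2 animals, a male and a female. Whether inferior and superior pools came from the same animals is not stated in the sources used here, and if they did, the tests between regions treat linked pools as independent. The values are log2 signals, so a difference of 1 is a doubling. P-values came from limma's moderated test and were adjusted across the whole table by the method of Benjamini and Hochberg. A gene was called at an adjusted p under 0.05, and with 2 arrays a group such values reflect no more than the spread between these pools. The question was how far the cone cascade differed between the inferior retina, in which hyperoxic photoreceptor loss begins, and the more resistant superior retina.

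In a cone, light activates an opsin, and the opsin loads the alpha subunit of transducin with GTP. The alpha subunit then releases the catalytic part of phosphodiesterase from its inhibitory gamma subunit, cyclic GMP is broken down and the cation channels of the outer segment close. Rods run the same cascade with their own set of paralogues. Loss of several of the cone genes, among them *CNGA3*, *CNGB3*, *GNAT2*, *PDE6C* and *PDE6H* in humans, causes achromatopsia, a loss of cone vision. In the mouse retina cones are a small minority beside rods, so an array measures their transcripts among those of all other cells, and fewer cones and less RNA per cone cannot be told apart in these values. *Arr3*, the cone arrestin, lay between 10.54 and 11.06 on the log2 scale over the arrays, where the median of all probe sets was 6.98 to 7.05. Not every cone gene stood that high: in a list of 10 further cone genes that includes *Arr3*, means ran from 6.76 for *Rxrg* to 11.58 for *Opn1sw*.

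Windows of 250 bases before to 50 bases after a transcription start, from RefSeq on GRCm38.p6, matched 3 members with 4 windows. They were searched on both strands for TAATCC, the core site of the photoreceptor factors CRX and OTX2, and for AGGTCA, a core motif of nuclear receptors. TAATCC was found in 1 window, that of *Gnat2*, and AGGTCA in 0. Over all 32851 windows TAATCC occurred in 7.06% and AGGTCA in 16.3%. The stretch of the *Gnat2* window around the match is shown because it is the only match among the members. It lies at chr3:108093015-108093065 on the plus strand, ends at the last base before the start, and has the reverse complement of TAATCC in capitals, 19 bases before the start. This start lies inside the annotated span of the gene, which begins further upstream.
Gnat2: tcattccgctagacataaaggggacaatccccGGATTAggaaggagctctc

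*Gnb3*, which encodes the G protein beta subunit of cone transducin and is used by ON bipolar cells as well, was the 1 member that rose after hyperoxia. In the inferior retina it measured 12.00 and 12.05 on the hyperoxia arrays, against 11.20 and 11.11 on the control arrays (log2 signal). Both exposed arrays lay far above both controls, and the replicates differed by less than 0.1. The mean was 12.02 ± 0.04 in hyperoxia and 11.15 ± 0.06 in control inferior retina (SD, n = 2 each), a log2 difference of 0.87 (standard error 0.08, 95% interval 0.68 to 1.06, adjusted p = 0.00368 from limma), or 1.83-fold. Of the 7 members 1 was called higher and 0 lower in this comparison, where 0.43% of all probe sets were called higher and 0.0624% lower. Each replicate number taken alone gave 0.80 and 0.94. The call was lost without hyperoxia inferior replicate 2 (0.84, adjusted p = 0.0567 from limma). *Gnb3* is on the study's own list of genes regulated differently in the 2 regions, which was chosen on these samples, so its rise is not independent evidence.

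In the superior retina *Gnb3* measured 11.39 and 11.33 in hyperoxia, against 11.17 and 11.17 in controls. The exposed arrays were again the higher ones, with no overlap, and the gap was smaller. The log2 difference was 0.19 (95% interval 0.00 to 0.39, adjusted p = 0.884 from limma), and 0 of the 7 members passed, where 0.0173% of all probe sets did. The change in the inferior minus that in the superior retina was 0.68 (standard error 0.12, 95% interval 0.40 to 0.95). Its unadjusted p of 0.000388 from limma's model ranked 36 among all probe sets, and after adjustment it failed (adjusted p = 0.311), where 0.00347% of probe sets passed that test. Averaged over both regions *Gnb3* rose by 0.53 (95% interval 0.39 to 0.67, adjusted p = 0.00822 from limma), the 1 member called, where 0.447% of probe sets were called higher. This call was lost without hyperoxia inferior replicate 2 (adjusted p = 0.0529 from limma), without hyperoxia superior replicate 1 (adjusted p = 0.0537) and without control superior replicate 2 (adjusted p = 0.0533).

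**Figure D1:**
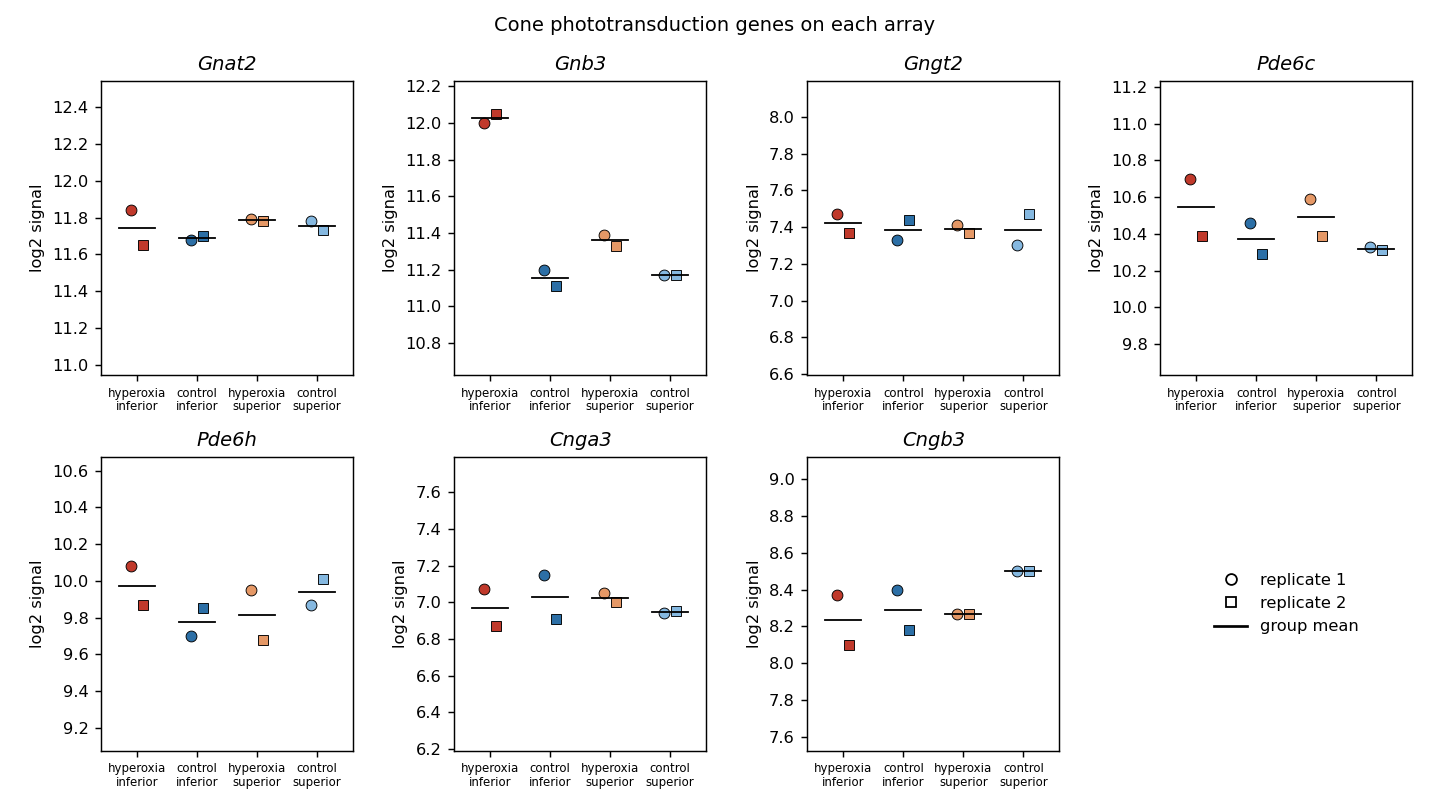
Log2 signal of the 7 cone genes (vertical axes, each spanning the same number of log2 units) on the 8 arrays, by group (horizontal axes); circles are replicate 1, squares replicate 2 and lines group means. *Gnb3* stands at 12.00 and 12.05 in the hyperoxia inferior retina and between 11.11 and 11.39 elsewhere, while the other members show overlapping or closely placed groups.

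The other transducin subunits stayed within narrow bounds. *Gnat2*, the cone alpha subunit that carries the GTP, measured 11.84 and 11.65 in hyperoxia inferior retina, against 11.68 and 11.70 in control inferior retina, so the exposed pair spanned the controls. Its superior values were 11.79 and 11.78 in hyperoxia, against 11.78 and 11.73 in controls. The log2 differences were 0.05 (95% interval -0.16 to 0.27) in the inferior and 0.03 (95% interval -0.18 to 0.24) in the superior retina. *Gngt2*, the cone gamma subunit that pairs with *Gnb3*, had 7.47 and 7.37 in hyperoxia inferior retina, against 7.33 and 7.44 in control inferior retina, with the groups overlapping. Superior values were 7.41 and 7.37 in hyperoxia, within the 7.30 and 7.47 of the controls. Its log2 differences were 0.04 (95% interval -0.18 to 0.26) in the inferior and 0.01 (95% interval -0.21 to 0.23) in the superior retina. The mean signal of *Gngt2*, 7.40, was near the median of all probe sets, as was that of *Cnga3*, 6.99.

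Both phosphodiesterase genes had small positive values in the inferior retina that did not pass. *Pde6c*, the catalytic subunit, measured 10.70 and 10.39 in hyperoxia inferior retina, against 10.46 and 10.29 in control inferior retina, and the 2 exposed arrays lay on either side of the higher control. Both superior hyperoxia values, 10.59 and 10.39, were above the 10.33 and 10.31 of the controls. The log2 difference was 0.17 in each region (95% interval -0.12 to 0.46 in both, adjusted p = 0.737 for inferior and 0.93 for superior retina from limma). The inferior value of *Pde6c* was 0.01 when replicate 1 of the exposed inferior retina was left out and 0.32 when its replicate 2 was. *Pde6h*, the inhibitory gamma subunit of the cone enzyme, was at 10.08 and 9.87 in hyperoxia inferior retina, against 9.70 and 9.85 in control inferior retina, so its groups came within 0.02 of each other without overlapping. Superior retina gave 9.95 and 9.68 in hyperoxia, against 9.87 and 10.01 in controls, and these groups overlapped. Its log2 difference was 0.20 (95% interval -0.08 to 0.49, and 0.10 to 0.30 with an array left out) in the inferior and -0.13 (95% interval -0.41 to 0.16) in the superior retina. The difference between these changes was 0.33 (95% interval -0.07 to 0.73, adjusted p = 0.839 from limma).

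The channel genes had no called change either. *Cnga3*, the subunit that can form a channel by itself, measured 7.07 and 6.87 in hyperoxia inferior retina, against 7.15 and 6.91 in control inferior retina. In both groups replicate 2 was the lower, and the spread within each group was wider than the gap between their means. Its superior values were 7.05 and 7.0 in hyperoxia, against 6.94 and 6.95 in controls, with the exposed arrays the higher. Its log2 differences were -0.07 (95% interval -0.32 to 0.19) in the inferior and 0.08 (95% interval -0.17 to 0.33) in the superior retina. *Cngb3*, the modulatory subunit, measured 8.37 and 8.10 in hyperoxia inferior retina, against 8.40 and 8.18 in control inferior retina, again with overlap. Superior retina gave 8.27 and 8.27 in hyperoxia, against 8.50 and 8.50 in controls. These replicates agreed to within rounding, and the log2 difference was -0.23 (95% interval -0.49 to 0.04, unadjusted p = 0.087, adjusted p = 0.904 from limma). It was the lowest of the members' differences in that region.

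Among the 6 members other than *Gnb3*, the 95% intervals for hyperoxia against control reached from -0.32 to 0.49 in the inferior and from -0.49 to 0.46 in the superior retina, which as folds are 0.801 to 1.40 and 0.71 to 1.37. A change of the size of *Gnb3* in the inferior retina lay outside the interval of each of these 6. Groups did not overlap for 2 of the 7 members in the inferior retina, both higher, where 20.5% of all probe sets were higher and 18.1% lower without overlap. In the superior retina 4 were higher and 1 was lower without overlap, where 18.7% and 17.2% of all probe sets were. The median difference of the 7 was 0.05 for inferior and 0.03 for superior retina, against 0.01 and 0.00 over all probe sets.

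**Figure D2:**
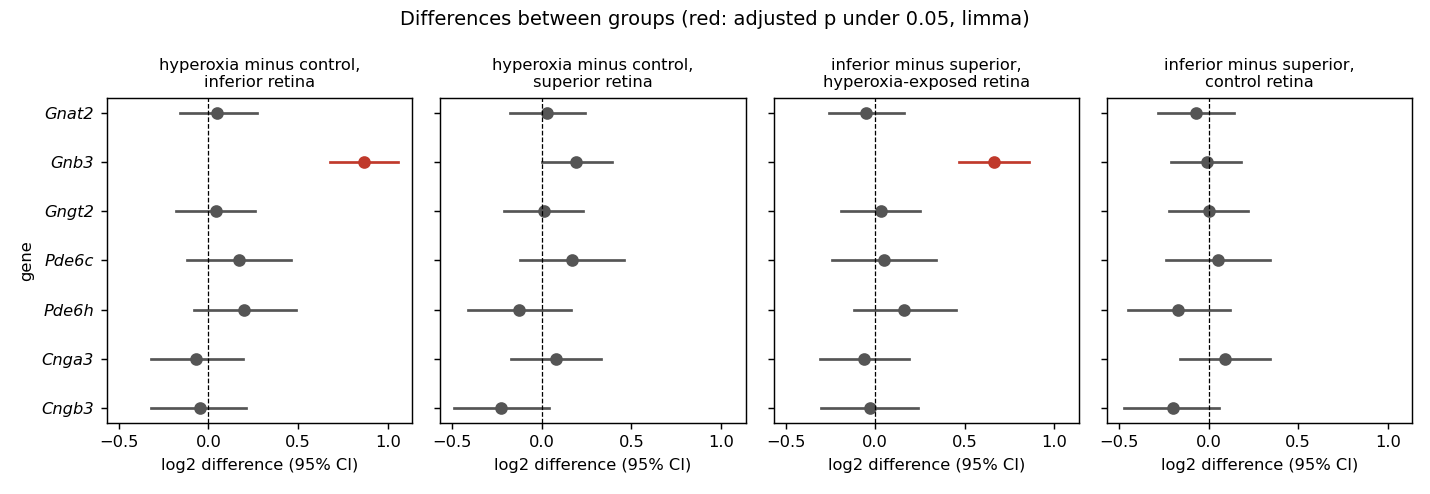
Log2 differences of the 7 cone genes (horizontal axes) with 95% intervals from limma, for hyperoxia against control in each region and for inferior against superior retina in each oxygen condition. *Gnb3*, in red, is called at 0.87 in the inferior retina and at 0.66 between the exposed regions; the intervals of the other 6 members include 0 in every panel.

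Between the regions of the control retina the cone genes had small differences, and no member was called. *Gnb3* had a log2 difference of -0.01 (95% interval -0.21 to 0.18) between inferior and superior control retina, and its 4 control arrays lay between 11.11 and 11.20. The 6 other members ran from -0.20 for *Cngb3* to 0.09 for *Cnga3*, with intervals between -0.47 and 0.34 and adjusted p-values of 0.947 and above from limma. At an adjusted p under 0.05 limma called 0 of the 7 members and 0% of all probe sets. At an unadjusted p under 0.05 it called 0 of the 7 and 5.3% of all probe sets, and the methods' t-test with the same adjustment called 0 members. *Gnat2*, *Pde6h* and *Cngb3* were lower in the inferior control retina without overlap, 3 of 7 where 16.7% of all probe sets were. None of the 7 was higher without overlap, where 17.5% of all probe sets were. The cone opsins had larger values in the same comparison, 0.82 for *Opn1sw* and -0.72 for *Opn1mw*, short of the threshold too (adjusted p = 0.85 and 0.83 from limma).

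Between the regions of the hyperoxia-exposed retina *Gnb3* stood apart. It was 12.00 and 12.05 in the inferior, against 11.39 and 11.33 in the superior exposed retina, a log2 difference of 0.66 (standard error 0.08, 95% interval 0.47 to 0.86, adjusted p = 0.0335 from limma). This was 1 of the 7 members higher and 0 lower, where 0.125% of all probe sets were called higher and 0.0139% lower. It was also the 1 member whose groups did not overlap upwards, where 20% of all probe sets did so. The difference itself was 0.61 and 0.72 within the 2 replicate numbers and ran from 0.63 to 0.69 when arrays were left out, while the call was lost without any 1 of the 8 arrays (adjusted p from 0.0514 without a control inferior array to 0.295 without hyperoxia superior replicate 2) and in a fit blocked on replicate number (adjusted p = 0.0791). The other 6 members ran from -0.06 for *Cnga3* to 0.16 for *Pde6h*, with intervals between -0.31 and 0.45. Averaged over both oxygen conditions *Gnb3* was higher by 0.32 in the inferior retina (95% interval 0.19 to 0.46), with an adjusted p = 0.239 from limma, and 0 members passed where 0.0173% of all probe sets did.

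In the order of its 4 group means, *Gnb3* was highest in hyperoxia inferior retina (12.02), then in hyperoxia superior (11.36), control superior (11.17) and control inferior retina (11.15). The first step in that order passed the test, the next had an adjusted p of 0.884 from limma, and the last was -0.01. For the other 6 members, neighbours in the order of means that share a region or an oxygen condition did not differ by the test, and the remaining pairs were not tested.

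The rod counterparts of these genes had no called change. *Gnb1*, the beta subunit of rod transducin and of many other G proteins, measured 14.27 and 14.18 in hyperoxia inferior retina, against 14.25 and 14.25 in control inferior retina, a log2 difference of -0.03. All 8 counterparts had negative values in the inferior retina, with a median of -0.18 and a range of -0.39 to -0.03, and 0 passed. Most of this shift was on 1 array: with each gene centred on its own mean, the 8 had a median of -0.04 on hyperoxia inferior replicate 1 and -0.30 on replicate 2, against 0.01 and 0.02 on the inferior controls. The lowest were *Cngb1*, the beta subunit of the rod channel, at -0.39 (adjusted p = 0.355 from limma) and *Gngt1*, the gamma subunit of rod transducin, at -0.38 (adjusted p = 0.192). *Gngt1* was at 11.34 and 11.14 in hyperoxia, against 11.58 and 11.66 in control inferior retina. In the superior retina 4 of the 8 were positive and 4 negative, with a median of 0.00. Whether the cone and the rod set differ in their change was not tested.

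Other photoreceptor genes gave 0 calls in either region. Of 10 further cone genes 3 had positive and 7 negative values in the inferior retina, with a median of -0.04. The largest were *Otop3*, a proton channel gene, at 0.24 (adjusted p = 0.693 from limma) and *Opn1mw* at 0.12. In the superior retina *Opn1sw* had the largest, at -0.55 (adjusted p = 0.833), with 11.06 and 10.45 in hyperoxia against 11.10 and 11.51 in controls. Of 8 other rod genes measured, 7 were negative in the inferior retina with a median of -0.22, led by *Nrl*, the transcription factor that sets rod fate, at -0.41 (adjusted p = 0.136). Of 15 further phototransduction and photoreceptor genes, not assigned to rods or cones alone when listed, 13 were negative there with a median of -0.10, the lowest being *Gucy2f*, a guanylate cyclase that restores cyclic GMP and is known mainly from rods in the mouse, at -0.52 (adjusted p = 0.18), and *Rgs9bp*, which anchors the complex that switches transducin off, at -0.47 (adjusted p = 0.218). Over all probe sets the median was 0.01.

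**Figure D3:**
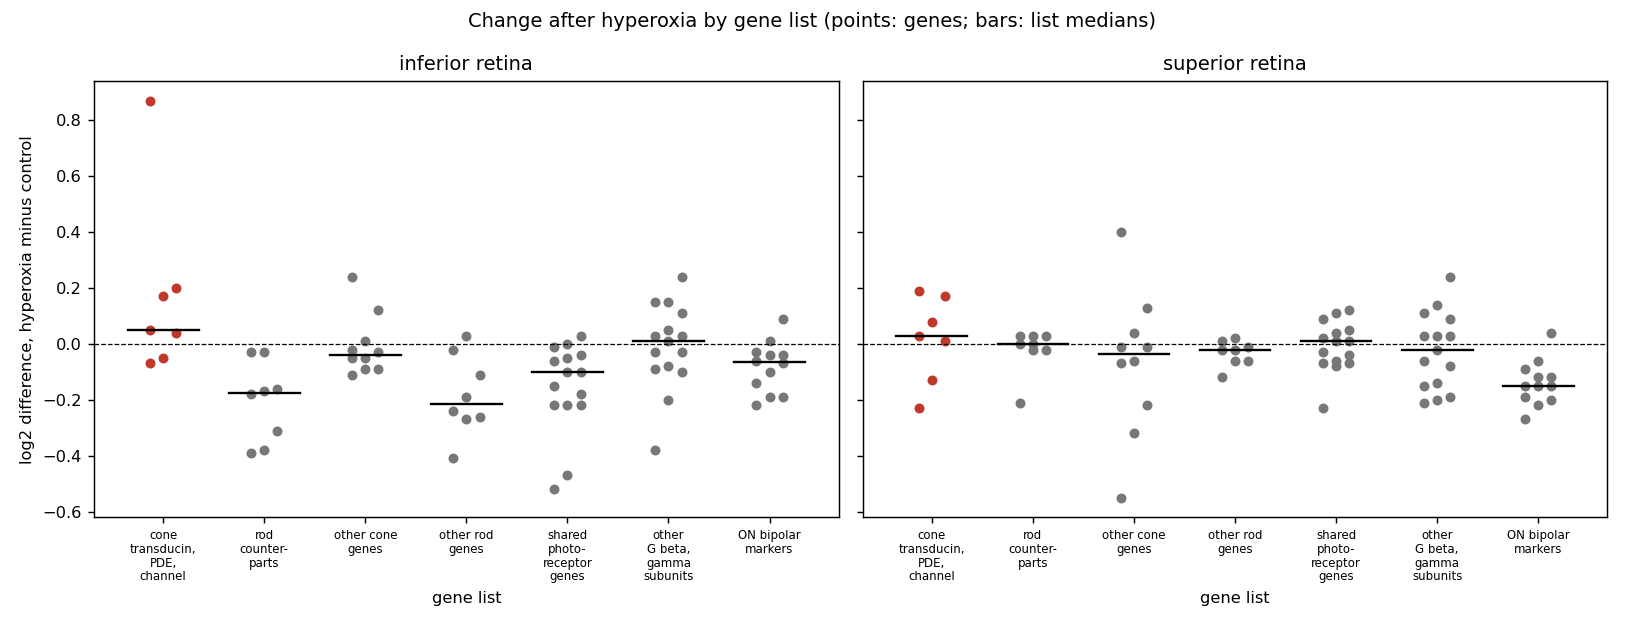
Log2 difference between hyperoxia and control (vertical axis) in the inferior and the superior retina for the cone cascade genes and 6 lists of related genes; each point is 1 gene and each bar a list median. In the inferior retina *Gnb3* lies at 0.87, while the rod counterparts have a median of -0.18 and the ON bipolar markers one of -0.07.

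Genes of the other G protein beta and gamma subunits had 0 calls among 15, with a median of 0.01 in the inferior retina. Besides *Gnb1*, the beta subunit genes *Gnb2*, *Gnb4* and *Gnb5* had log2 differences of 0.24, 0.03 and -0.10 there (adjusted p = 0.448, 0.965 and 0.773 from limma). *Gnb2* measured 10.22 and 10.34 in hyperoxia, against 10.02 and 10.07 in control inferior retina, with both exposed arrays above both controls. *Gngt2*, the gamma partner of *Gnb3* in cones, had 0.04 beside 0.87 for *Gnb3*, and the difference between these changes was not tested.

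Markers of ON bipolar cells, which also use *Gnb3*, had no called change in either region. Of 12 measured, 2 were positive and 10 negative in the inferior retina with a median of -0.07, and 1 was positive and 11 negative in the superior retina with a median of -0.15. *Gpr179*, an orphan receptor of their dendrites, had -0.22 (adjusted p = 0.61 from limma) and *Rgs11*, a regulator that speeds the off-switch of their G protein, -0.19 (adjusted p = 0.6) in the inferior retina. Their summed signal was 13.58 and 13.68 in hyperoxia, against 13.76 and 13.63 in control inferior retina (log2).

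Microglia and macrophage markers were higher in the exposed inferior retina, as *Gnb3* was. Of 8 measured, all were positive in both regions, with medians of 1.05 for inferior and 0.36 for superior retina. By limma 6 rose in the inferior retina, where 0.43% of all probe sets were called higher. The change in the inferior minus that in the superior retina was called for 0 of the 8. Between the exposed regions 4 of the 8 were called higher in the inferior retina, where 0.125% of all probe sets were. The summed signal of the 8 markers was 10.83 and 10.97 in hyperoxia, against 9.61 and 9.64 in control inferior retina (log2). The lower of the exposed superior arrays had 9.96, against 9.57 on the higher of the superior controls. The deposited values carry no detection call, so no marker could be placed at 0. The 7 markers of pigment epithelium had a summed signal of 12.55 and 12.12 in hyperoxia, against 11.35 and 12.19 in control inferior retina. Superior retina gave 12.31 and 12.32 in hyperoxia, against 10.59 and 11.89 in controls. Their median differences were 0.31 for inferior and 1.13 for superior retina, and 0 were called in either. The summed signal of 8 lens genes was higher on replicate 2 than on replicate 1 in each group. It was 10.25 against 9.28 in hyperoxia inferior, 10.03 against 9.46 in hyperoxia superior and 11.08 against 9.07 in control superior retina. By far the highest was control inferior replicate 2, at 14.93, against 8.87 to 11.08 on the other arrays. Without that array *Gnb3* still rose by 0.83 (adjusted p = 0.0318 from limma). Among 7 Muller cell markers *Gfap* rose by 2.42 in the inferior retina, where 0.43% of all probe sets were called higher. *Glul*, the glutamine synthetase of these glia, fell there by 0.70 (adjusted p = 0.0416 from limma), where 0.0624% were called lower. *Gfap* was called in the superior retina as well, at 1.24 (adjusted p = 0.0296 from limma), where 0.0173% of probe sets were called. The part of these cells in the values of the cone genes was not tested.

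The 3 genes nearest to *Gnb3* over the 8 arrays, by Euclidean distance after each gene was centred on its own mean, were *Agtpbp1*, a carboxypeptidase that trims tubulin and whose loss in mice leads to degeneration of Purkinje cells and photoreceptors, *Rbm17*, a splicing factor, and *Lin7b*, a scaffold protein of cell junctions and synapses. They were the nearest of 10864 genes with a mean log2 signal of at least 7, at distances of 0.20, 0.21 and 0.23, where the profile of *Gnb3* itself had a length of 1.01. *Agtpbp1* measured 11.95 and 11.88 in hyperoxia, against 11.16 and 11.03 in control inferior retina, and both exposed arrays were above both controls. In the inferior retina the 3 genes differed by 0.81, 0.91 and 0.87, and in the superior retina by 0.17, 0.14 and 0.15. These values are a description, since genes chosen for a profile like that of *Gnb3* on the same arrays had to differ much as it did. All are also on the study's list chosen on these samples. The other members had profiles with lengths between 0.17 and 0.38, close to flat, so genes near them were near to flat as well. *Topbp1* was nearest to *Gnat2*, at a distance of 0.05.

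**Figure D4:**
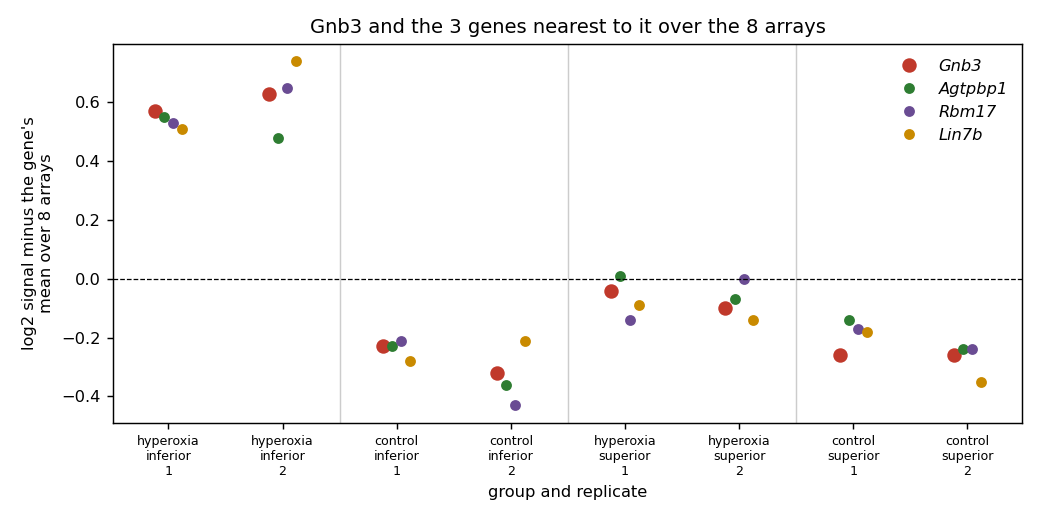
Log2 signal minus each gene's own mean over the 8 arrays (vertical axis) for *Gnb3*, *Agtpbp1*, *Rbm17* and *Lin7b*, by group and replicate (horizontal axis). On the hyperoxia inferior arrays the 4 genes lie between 0.48 and 0.74, and on the other 6 arrays between -0.43 and 0.01.

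*Gnb3* lies on chromosome 6, as does *Pde6h*, and the remaining members are each on another chromosome. Its protein-coding neighbours in the RefSeq gene table of GRCm38.p6, looked up after its values were seen, had no called change. *Cdca3* and *P3h3*, the genes on either side, had log2 differences of -0.01 (adjusted p = 0.986 from limma) and 0.21 (adjusted p = 0.543) in the inferior retina, and *Usp5*, *Tpi1*, *Gpr162* and *Cd4* ran from -0.33 to 0.20.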

How the data were processed

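Retinal RNA was hybridised to 8 arrays (Affymetrix Mouse Gene 1.0 ST). The deposited log2 values came from Partek, where the authors applied RMA background correction to core probes and summarised them by median polish. The sources used here give neither versions nor any normalization between arrays, and no further step was applied to these values. Detection calls and depth are not part of such values, and the number of arrays limits precision. Of 28853 probe sets, 21789 have 1 symbol in the platform annotation, 1621 several and 5443 none listed. Group means were fitted over all arrays with limma 3.58.1 in R 4.3.3 (4 residual and 4.47 prior degrees of freedom), and 7 comparisons were made. Adjustment followed Benjamini and Hochberg across the whole table. The test was tried on simulated data first. Same-numbered arrays of different groups had deviations that correlated between -0.02 and 0.14 over all probe sets. Such correlations cannot show whether these arrays share animals or a run, because most probe sets may vary for other reasons. The main fit assumed no pairing, and a replicate block was tried as an alternative. The members and lists were chosen with earlier results of these data known. Genes named from a list were those past the test or the 2 with the largest difference, and for each member the 3 nearest genes. *Arr3*, *Rxrg*, *Gnb1*, the other beta subunit genes, *Cd4* and the other neighbours of *Gnb3* were named after their values were seen. Alternatives were quantile normalization, median centring, filters on probe sets, probe sets averaged per gene and fits to only the arrays compared. Others were the t-test of the methods, other priors, a replicate block and leaving out each array. The t-test was run on contrasts of the fit over all arrays, without limma's moderation.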

Additional observations from a re-analysis of the deposited data

How the results depend on the processing

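*Gnb3* in the inferior retina kept its direction under 18 alternatives and its call under 15. The count of called members, 1 in the report, was 0 with only the arrays of the comparison (adjusted p = 0.0691) and by the methods' t-test (adjusted p = 0.114), and 0 to 1 when an array was left out. Averaged over both regions it was 0 by the methods' t-test (adjusted p = 0.107) and 0 to 1 with an array left out. Between the exposed regions it was 0 with only the arrays of the comparison (adjusted p = 0.136), by the methods' t-test (adjusted p = 0.382), with the replicate number as a block (adjusted p = 0.0791, 0 members called) and without each array (0 to 0 members). Averaged over both oxygen conditions it was 1 instead of 0 with a variance trend, *Gnb3* (adjusted p = 0.0281). The replicate block changed no other call of a member: *Gnb3* in the inferior retina stayed at 0.87 (adjusted p = 0.00956 from limma). The region difference in its response passed under 0 of 17 alternatives.

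The 6 other members were called in 0 of 432 values over the 4 comparisons of single groups and their alternatives (smallest adjusted p = 0.539 from limma). Signs turned in 20 of these, from differences of 0.13 or less. That count leaves out *Gngt2* between the control regions, whose difference was 0.00 and ran from -0.08 to 0.08 with an array left out. *Gngt2* in the superior retina was -0.01 with quantile normalization and -0.01 with median centring. With an array left out, hyperoxia against control in the inferior retina ran from -0.04 to 0.15 for *Gnat2*, -0.01 to 0.09 for *Gngt2*, -0.19 to 0.06 for *Cnga3* and -0.19 to 0.08 for *Cngb3*, from 0.01 to 0.32 for *Pde6c* and 0.10 to 0.30 for *Pde6h* without a change of sign, and in the superior retina from -0.08 to 0.09 for *Gngt2* and -0.26 to 0.01 for *Pde6h*. Inferior against superior ran in control retina from -0.06 to 0.03 for *Gnb3*, -0.04 to 0.14 for *Pde6c* and -0.03 to 0.21 for *Cnga3*, and in exposed retina from -0.02 to 0.08 for *Gngt2*, -0.10 to 0.21 for *Pde6c*, -0.14 to 0.05 for *Gnat2*, -0.16 to 0.04 for *Cnga3* and -0.17 to 0.10 for *Cngb3*. The cause was not tested; with 1 array left in a group, the value rests on it.

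Over all alternatives the probe sets called numbered 2 to 374 in the inferior retina against 142 in the report's fit, 0 to 21 against 5 in the superior retina, 2 to 291 against 164 averaged over regions, 0 to 30 against 1 for the difference of the changes, 0 to 53 against 0 between control regions, 0 to 84 against 40 between exposed regions and 0 to 59 against 5 averaged over oxygen conditions.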

Other observations

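In the hyperoxia inferior retina, 6 of the 7 cone genes were lower on replicate 2 than on replicate 1, with a median difference of -0.20, and *Gnb3* was the exception. All 8 rod counterparts and all 8 other rod genes measured were lower on replicate 2 as well, with medians of -0.23 and -0.20. Over 14475 probe sets with a mean log2 value of at least 7 the median was 0.00 to 2 decimals, and 50.9% were lower on replicate 2. In the control inferior retina 4 of the 7 cone genes and 5 of the 8 rod counterparts were lower on replicate 2, where 55.6% of these probe sets were. The superior retina of exposed animals had 6 of the 7 cone genes and 7 of the 8 rod counterparts lower on replicate 2. Their medians were smaller, -0.05 and -0.05, and 40.2% of these probe sets were lower. The superior retina of controls had 3 of the 7 and 0 of the 8 lower, where 49.5% of these probe sets were. *Gnb3* itself was 12.00 and 12.05 on the exposed inferior arrays.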
